A study of Homo sapiens with 6 samples.

Results

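The histone genes described here were the rows of the expression table whose symbol begins with HIST1H, HIST2H, HIST3H or HIST4H, the older names of the clustered human histone genes, and 50 of 17047 genes met this rule. They comprised 4 genes for the linker histone H1, 14 for H2A, 12 for H2B, 10 for H3 and 10 for H4. Of these, 35 lay in the HIST1 cluster on chromosome 6, 12 in HIST2 and 2 in HIST3 on chromosome 1, and 1 (HIST4H4) on chromosome 12. RefSeq listed 71 protein-coding human genes with such a name, and the other 21 were not analysed here. The cells were HCT116, an established human colorectal carcinoma line, transduced with virus encoding either PLEK2 shRNA or shNC, a non-targeting shRNA, and 3 libraries were sequenced from each group. PLEK2 is a membrane and cytoskeletal protein, and the experiment asked how its knockdown changed gene expression. RNA was selected with oligo(dT) beads before random priming, and single-end reads of 50 nt were taken. Nothing in the labels says that libraries of a group came from separate cultures, so p-values measure the spread between these libraries, which may be technical.

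Most replication-dependent histone mRNAs are the exception among animal mRNAs, because they end in a short stem-loop instead of a poly(A) tail. With the stem-loop binding protein SLBP and the U7 snRNP, the transcript is cut just past this hairpin during S phase, when new nucleosomes are assembled. Some of these genes also give longer, polyadenylated transcripts from sites further downstream, and oligo(dT) selection retains these forms and depletes the tailless ones.

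The 3′ processing element was searched for in the 300 nt after each stop codon (GENCODE 44 on hg38), on the coding strand. The search required 16 bases that start with GG and end with CC, hold TT at positions 7 and 8 and form at least 5 of 6 stem pairs, G with T included. It was found in 49 of the 50 genes, between 22 and 67 nt after the stop codon, and not in HIST1H3E. Of 4048 other protein-coding genes on chromosomes 1, 6 and 12 not named as histone genes, 60 (1.48%) held a match to these rules, but 0 held any of the 7 exact hairpins of the histone genes. The elements below are where processing would give a tailless end, and no transcript end was measured here. They are shown for the most abundant genes of 3 classes and for HIST2H2BE, whose annotated end lies well past its hairpin. HIST2H2AC is added because its hairpin was held by no other member. The capitals mark the 16-base hairpin, whose hg38 position is given after the sequences.

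HIST1H1C: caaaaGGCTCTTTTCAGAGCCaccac
HIST1H2BK: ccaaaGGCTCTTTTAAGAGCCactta
HIST1H4C: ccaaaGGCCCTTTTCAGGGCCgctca
HIST2H2BE: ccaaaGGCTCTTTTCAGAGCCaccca
HIST2H2AC: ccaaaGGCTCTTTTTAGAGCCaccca

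These hairpins lie at chr6:26055744-26055759 on the minus strand (HIST1H1C), chr6:27146366-27146381 on the minus strand (HIST1H2BK), chr6:26104317-26104332 on the plus strand (HIST1H4C), chr1:149886188-149886203 on the minus strand (HIST2H2BE) and chr1:149887391-149887406 on the plus strand (HIST2H2AC). All are in the 3′ UTR. The hairpin of HIST1H1C and HIST2H2BE was shared by 29 members, none of them H4 genes, and that of HIST1H2BK by 7. That of HIST1H4C was held by 6 members, all H4 genes, and the other 4 H4 genes shared a further form. An annotated transcript ended more than 50 nt past the hairpin in 4 of the 10 members with a mean of at least 10 counts (HIST1H2AC, HIST1H2BD, HIST2H2BE and HIST3H2A) and in 11 of the 39 others with a hairpin. Distances here are genomic. In HIST1H2BD the furthest end lies 12747 nt past it, but the longest form has 789 nt, so the form with that end is spliced. The same holds for HIST1H2AC (14432 and 1668 nt) and HIST3H2A (22592 and 1615 nt). Whether these forms contain the hairpin was not tested.

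PLEK2 itself, the targeted gene, measured 86.0, 72.6 and 82.9 CPM (counts scaled to library size, with edgeR's TMM factors) in shNC replicates 1 to 3 and 16, 32.2 and 34.9 CPM in PLEK2 shRNA replicates 1 to 3. All 3 knockdown libraries lay below all 3 controls, while the edgeR quasi-likelihood test gave an adjusted p of 0.684 without and 0.00106 with the replicate number as a block. Library totals were between 14377532 and 15602732 estimated counts, and same-numbered libraries of the groups deviated together, so they were treated as pairs. Among epithelial markers KRT8, KRT18, KRT19, EPCAM, CDH1 and CDX2 were measured at means of 384.67 to 55550.5 counts and VIL1 at 1.33. Of 7 measured markers of fibroblasts, immune cells and endothelium, 5 had means of at most 5.83 counts, while COL1A1 had 418 and CD68 687. In bulk RNA, fewer cells in S phase and less histone RNA per cell cannot be told apart.

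Histone transcripts were scarce in every library. At least 1 estimated count in all 6 libraries was recorded for 14 of 50 histone genes (28.0%), against 83.1% of all genes in the table. A mean of at least 10 counts was reached by 10, against 75.8% of all genes. The members just inside and outside this limit were HIST2H2AC, with a mean of 10.83 counts, and HIST1H4J, with 5.55. Summed over the 50 genes, the counts were 412.81, 450.0 and 545.22 in shNC replicates 1 to 3 and 372.99, 517.9 and 448.93 in PLEK2 shRNA replicates 1 to 3, or between 0.00242% and 0.00376% of a library. The groups overlapped, with the lowest sum in PLEK2 shRNA replicate 1 and the highest in shNC replicate 3.

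The 40 genes under a mean of 10 counts shared between 47.81 and 70.22 counts in a library, 11.4% to 12.9% of all histone counts. Their mean was under 3 counts in 35 and under 1 count in 20. None was at 0 throughout: 4 had at least 1 count in 6 libraries (HIST1H1E, HIST1H2AJ, HIST1H2AM and HIST1H3H), 6 in 5, 10 in 4, 7 in 3, 8 in 2 and 5 in a single library. The last 5 were the linker histone genes HIST1H1A and HIST1H1B, HIST1H2BF, HIST1H3A and HIST4H4. Between 19 and 25 of the 40 were seen in an shNC library, and between 22 and 24 in a PLEK2 shRNA library, so detection overlapped between the groups.

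No H3 gene reached a mean of 10 counts. HIST1H3H, the highest of the 10, had 2, 4 and 4 counts with shNC and 2, 5 and 4 with PLEK2 shRNA. HIST2H3PS2 had a mean of 2.64 and HIST2H3D of 2.0 counts. All H3 genes together held between 7.88 and 19.7 counts in a library, for which exact 95% Poisson limits were 3.5 to 15.8 and 12.2 to 30.9. The limits cover counting error only, and at this depth no difference between the groups was detectable in the H3 genes.

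Among the 10 genes above the limit, H2A held 5, H2B 3, and H1 and H4 1 each. HIST1H2BK, an H2B gene, was the most abundant and alone supplied 26.3% to 42.7% of the histone counts of a library. Per transcript length, the mean over 6 libraries was 15.6 FPKM for HIST1H2BK, 7.87 for HIST1H1C, 7.16 for HIST1H4C, 5.31 for HIST3H2A and 3.48 for HIST1H2BD. The FPKM ranges of neighbours in this order overlapped, except between HIST3H2A (4.56 to 5.95) and HIST1H2BD (2.76 to 4.0). HIST2H2AA3 and HIST2H2AA4 followed at 3.21 FPKM each, then HIST2H2AC at 2.47 and HIST1H2AC at 2.19, all with overlapping ranges, and HIST2H2BE at 0.75, whose highest library (1.07) lay below the lowest of HIST1H2AC (1.52).

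The 9 measured members of a list of histone genes known to give polyadenylated transcripts (HIST1H1C, HIST1H2AC, HIST1H2BC, HIST1H2BD, HIST1H2BJ, HIST1H2BK, HIST2H2BE, HIST3H2A and HIST4H4) carried 70.4% to 74.5% of the histone counts of a library. The list and the annotated ends overlap only in part: HIST1H2BK and HIST1H1C, both in the list, have a single GENCODE transcript, ending 5 and 4 nt past the hairpin. The 15 members with an annotated transcript ending more than 50 nt past the hairpin carried 17.6% to 29.5%. Of the 9 listed genes, 6 had a mean of at least 10 counts. The other listed genes were low, with means of 2.67 counts for HIST1H2BC, 1.0 for HIST1H2BJ and 0.17 for HIST4H4. Outside the list, HIST1H4C, HIST2H2AA3, HIST2H2AA4 and HIST2H2AC were above the limit, and each had a single annotated transcript, ending 5 nt past the hairpin.

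The columns read here as FPKM have no unit in their header, and on that reading the ratio of count to FPKM gives the effective length that the authors' counting program used. For HIST1H1C, HIST2H2AA3 and HIST2H2BE, each with a single annotated transcript, it was 142, 142 and 141 nt shorter than that transcript. HIST2H2AA4, HIST1H4C and HIST2H2AC also have a single annotated transcript, and there it was 143, 158 and 201 nt shorter, so the offset was not the same in every gene. For HIST1H2BD it was 649 nt, longer than the 486-nt form that ends at the hairpin and 140 nt shorter than the 789-nt form that ends further downstream. HIST1H2BD was also the gene whose value moved most between libraries, from 606 to 675 nt (10.6%), where those of the other 9 moved by 1.49% to 4.45%. For HIST1H2BK it was 689 nt, which exceeds the only transcript in GENCODE 44 (495 nt), while the RefSeq gene spans 8566 bases with 3 transcripts. For HIST3H2A (352 nt) and HIST1H2AC (401 nt) it was 158 and 118 nt shorter than the shortest annotated form, of 510 and 519 nt. These lengths are a property of the authors' annotation and of how their program weighted its transcripts, and no read position was measured here.

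Replication-independent histone variants are expressed outside S phase too, and most of their mRNAs are polyadenylated. Their 12 measured genes summed to between 1460 and 1560 FPKM in a library, and the 50 histone genes to between 50.7 and 73.7 FPKM. The variants thus exceeded them 21.0- to 27.1-fold with shNC and 22- to 30.8-fold with PLEK2 shRNA. Of the 12, 9 had a mean FPKM above that of every HIST gene, from H2AFY2 at 25.8 to H2AFZ, the gene of H2A.Z, at 395. H2AFX, which encodes H2A.X, had 132 FPKM, and H2AFJ was lowest at 3.52.

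**Figure D1:**
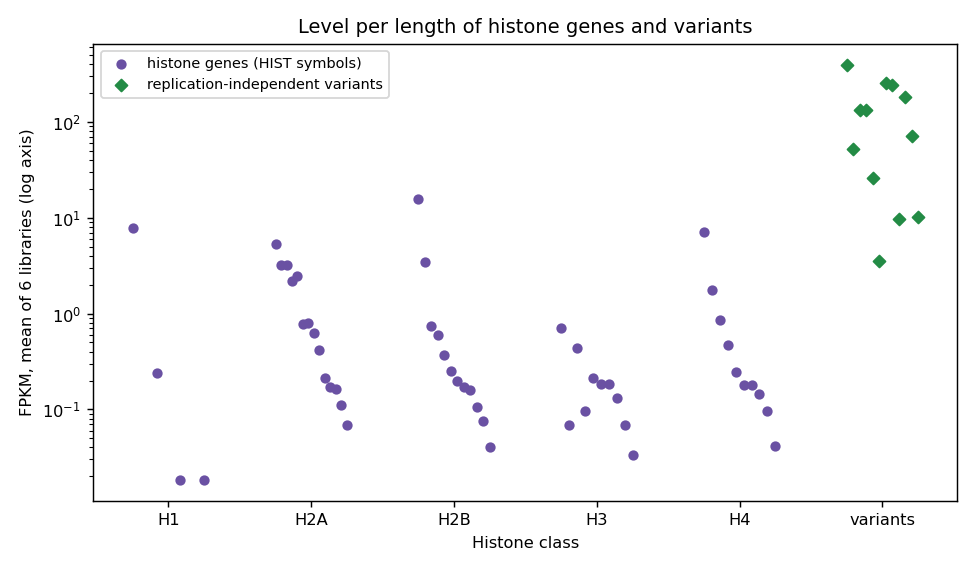
Mean FPKM over the 6 libraries (y axis, logarithmic) of each histone gene by class and of the replication-independent variants (x axis), with 1 point per gene. HIST1H2BK is the highest histone gene at 15.6 FPKM, and the variants run from 3.52 to 395 FPKM.

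None of the 10 histone genes tested was called changed at an adjusted p under 0.05 (edgeR, quasi-likelihood), where 0% of 12959 genes tested were called, and none had an unadjusted p under 0.05, against 3.09% of all genes. DESeq2's Wald test called 0 of them and 0.0926% of all genes. With the replicate block, again 0 were called, against 0.849% of all genes, and 0 had an unadjusted p under 0.05, against 18.3%. Their median log2 fold change of PLEK2 shRNA over shNC was 0.01, and that of all genes -0.002. The standard errors of the 10 ranged from 0.20 to 0.38 with a median of 0.30, where the median over all genes was 0.13, so these genes were measured less precisely than the typical gene. The other 40 did not pass the filter on low counts of this fit.

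HIST1H2BK, the H2B gene named above, measured 8.80, 10.9 and 16.1 CPM in shNC replicates 1 to 3 and 6.23, 12.7 and 9.73 CPM in PLEK2 shRNA replicates 1 to 3. The groups overlapped, and PLEK2 shRNA was lower in pairs 1 and 3 and higher in pair 2. Its log2 fold change was -0.32 ± 0.29 (SE, 95% interval -0.97 to 0.33), with an adjusted p of 0.968 by edgeR and of 0.287 with the replicate block. The pair ratios were -0.50, 0.21 and -0.73 on the log2 scale, of which those of pairs 1 and 3 exceeded 2 times their counting error. Leaving pair 2 out of the fit with the block gave -0.62 (edgeR adjusted p = 0.248), and leaving pair 3 out gave -0.09 (edgeR adjusted p = 0.857), so its size rested on which pairs were kept. Without the block it ran from -0.58 without PLEK2 shRNA replicate 2 to -0.04 without shNC replicate 3.

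HIST1H4C, a histone H4 gene, had 34, 33 and 20 counts with shNC and 17, 22 and 33 with PLEK2 shRNA. It was lower with PLEK2 shRNA in pairs 1 and 2 and higher in pair 3, and the groups overlapped. The log2 fold change was -0.34 ± 0.32 (SE, 95% interval -1.07 to 0.40, edgeR adjusted p = 0.968), the lowest of the 10. Blocking on the pairs gave -0.84 without pair 3 (edgeR adjusted p = 0.174) and -0.02 without pair 1 (edgeR adjusted p = 0.978). Without the block it ran from -0.65 without PLEK2 shRNA replicate 3 to -0.12 without PLEK2 shRNA replicate 1.

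HIST2H2BE, an H2B gene with a long polyadenylated form, had 24, 19 and 17 counts with shNC and 20, 34 and 27 with PLEK2 shRNA. Pairs 2 and 3 were higher with PLEK2 shRNA and pair 1 lower, and its log2 fold change of 0.37 ± 0.28 (SE, 95% interval -0.27 to 1.01, edgeR adjusted p = 0.968) was the highest of the 10. It was 0.16 without PLEK2 shRNA replicate 2 and 0.56 without PLEK2 shRNA replicate 1. Blocking on the pairs gave 0.68 without pair 1 (edgeR adjusted p = 0.258) and 0.16 without pair 2 (edgeR adjusted p = 0.901). HIST1H2BD, another H2B gene of this kind, had 37, 30 and 27 counts against 36, 41 and 33, and a log2 fold change of 0.16 ± 0.21, which was 0.07 without PLEK2 shRNA replicate 2, 0.08 without shNC replicate 3 and 0.27 without shNC replicate 1. In neither gene did the groups separate.

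HIST1H1C, which encodes a linker histone of the H1 family, had 61, 64 and 88 counts with shNC and 73, 62 and 68 with PLEK2 shRNA. The highest value was that of shNC replicate 3, and the other 5 lay close together. Its log2 fold change was -0.14 ± 0.20 (SE), and 0.06 without that library. HIST1H1E, the next H1 gene, had only 2, 1 and 3 counts against 3, 2 and 3.

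Of the H2A genes, HIST3H2A varied least, with 25, 30 and 28 counts with shNC and 27, 28 and 30 with PLEK2 shRNA. Its log2 fold change was -0.03 ± 0.22 (SE), with a 95% interval from -0.53 to 0.46. HIST1H2AC had 13, 16 and 9 counts against 14, 14 and 13, and HIST2H2AC 10, 15 and 7 against 9, 13 and 11. Their intervals, -0.68 to 0.76 and -0.90 to 0.85, were wide enough to hold changes of 1.5-fold either way.

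**Figure D2:**
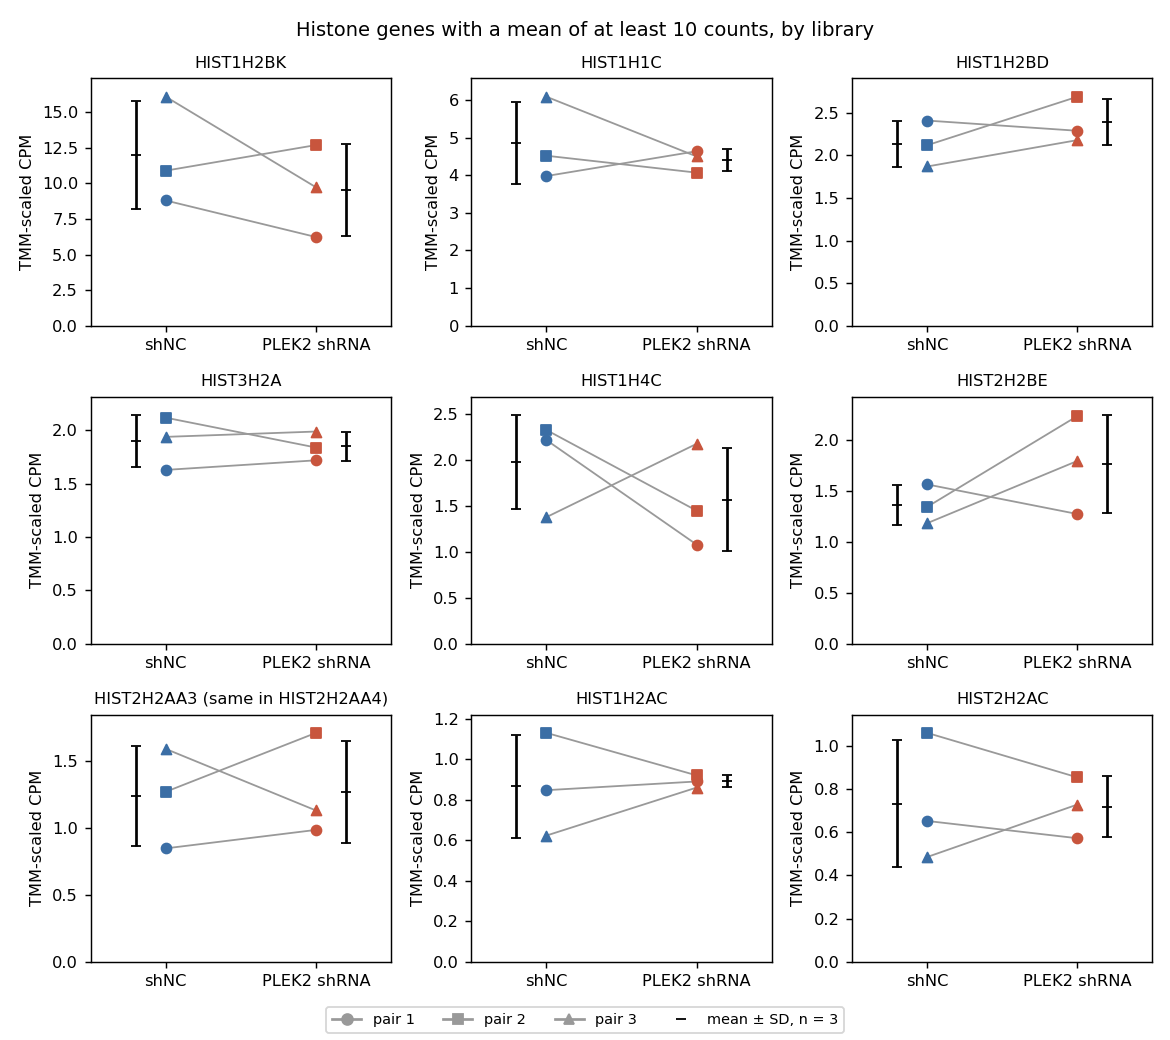
TMM-scaled CPM (y axis, from 0) in shNC (blue) and PLEK2 shRNA (red) for the histone genes with a mean of at least 10 counts, 1 panel per gene, with same-numbered libraries joined by a line and the mean ± SD of 3 libraries in black. In every panel the groups overlap, and lines rise in some pairs and fall in others.

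Within same-numbered pairs, 0 of the 10 genes were higher with PLEK2 shRNA in all 3 pairs and 0 were lower in all 3. Among the 12922 genes of the table with a mean of at least 10 counts, 19.9% were higher in all 3 pairs and 21.1% lower. Among the 3816 with a mean between 10 and 200 counts, the range of these members, the shares were 15.5% and 15.5%. Counting the identical copies HIST2H2AA3 and HIST2H2AA4 once, 9 loci gave 27 pair ratios, of which 14 were above 0 and 13 below. Only 3 of the 27 lay farther from 0 than 2 times their counting error: HIST1H2BK in pairs 1 and 3 and HIST1H4C in pair 1.

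Summing genes avoids the division of reads between near-identical copies. The sum of all 50 was 32.1 ± 5.43 CPM with shNC and 29.2 ± 5.18 CPM with PLEK2 shRNA (SD, n = 3). The log2 pair ratios were -0.18, 0.10 and -0.35, with counting errors of 0.10, 0.09 and 0.09. The mean log2 levels differed by -0.14, less than the SD of 0.25 within groups. Without HIST1H2BK the pair ratios were -0.05, 0.04 and -0.11. The sum of the 40 low genes gave -0.03, 0.08 and -0.47, each with a counting error of 0.26 to 0.29.

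By class, H2B followed HIST1H2BK, with log2 pair ratios of -0.38, 0.30 and -0.51 and counting errors of 0.15, 0.13 and 0.13. H4 gave -0.81, -0.64 and 0.78, of the opposite sign to H2B in pairs 2 and 3 and of the same sign in pair 1. Its counting errors were 0.34, 0.33 and 0.33. The ratios of H2B in all 3 pairs and of H4 in pairs 1 and 3 thus exceeded 2 times their counting error. The counts of the H4 genes were 48.0, 48.0 and 29.0 with shNC and 28.0, 33.0 and 52.0 with PLEK2 shRNA. H1 gave 0.23, -0.15 and -0.44, H2A 0.07, 0.01 and -0.30, and H3 0.57, 0.61 and -0.39. No class had the same sign in all 3 pairs.

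**Figure D3:**
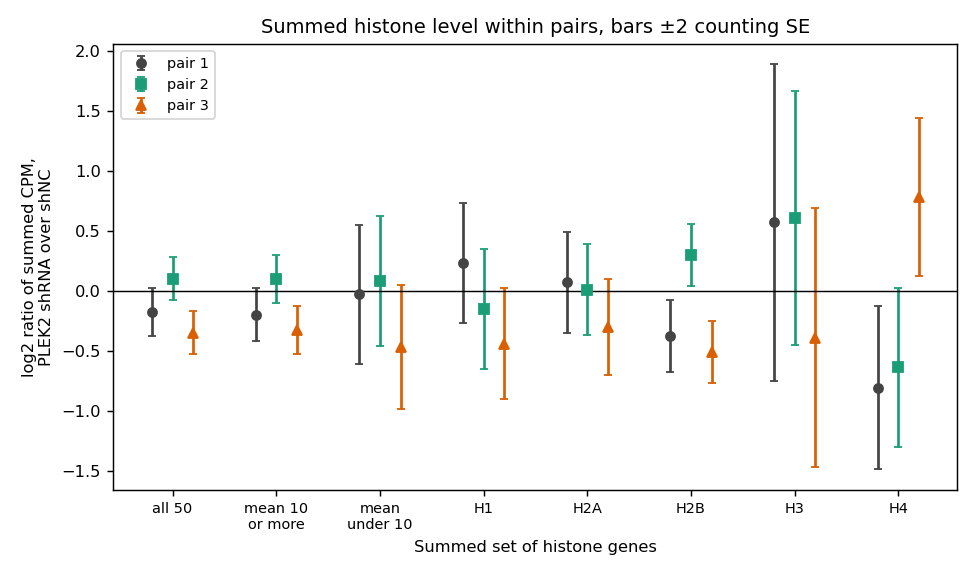
The log2 ratio of summed CPM, PLEK2 shRNA over shNC (y axis), in each same-numbered pair for all 50 histone genes, those above and below a mean of 10 counts, and each class (x axis), with bars of 2 times the counting error. Every set has ratios on both sides of 0.

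Several histone genes have near-identical copies, and the estimated counts show how reads were divided between them. HIST2H2AA3 and HIST2H2AA4 carried identical values in all 6 libraries, together 26, 36 and 46 counts with shNC and 31, 52 and 34 with PLEK2 shRNA, and so did HIST2H3A with HIST2H3C and HIST2H4A with HIST2H4B. Each pair is one measurement listed under 2 names, and the log2 fold change of HIST2H2AA3, 0.06 ± 0.33 (SE), is the same value as that of HIST2H2AA4. In all, 13 of the 50 genes (26%) had a count that was not whole to within 0.004 in some library, against 21.6% of all genes.

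HIST1H4J and HIST1H4K, both H4 genes, had counts that were not whole alone but whole when added. HIST1H4J was listed at 3.98, 8.33 and 7.0 counts with shNC and 0, 0 and 14 with PLEK2 shRNA, and HIST1H4K at 6.02, 1.67 and 0 against 5.0, 4.0 and 0. Their sum was 10, 10 and 7 against 5, 4 and 14. A value of 0 for either gene was thus listed beside reads assigned to the other in the same library.

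HIST1H2AI and HIST1H2AJ, both H2A genes, also added up to whole counts. So did HIST1H2AD, an H2A gene, and HIST1H3D, an H3 gene and thus of another class. Why counts were shared between these classes was not tested. When every gene with a count was tested, HIST1H2AD was the 1 of 50 histone genes with an unadjusted p under 0.05, against 3% of all genes (edgeR, log2 fold change -4.32 ± 1.78 (SE), adjusted p = 0.925). Over 3 libraries a group it held 6.93 counts with shNC and 0.2 with PLEK2 shRNA, while HIST1H3D held 2.07 and 4.8. Together the genes held 9.0 and 5.0 counts.

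Genes that act on histone mRNAs were not called without the block either. Of 18 genes for 3′ processing and decay of these mRNAs, 0 passed edgeR's test without or with the block, and their log2 fold changes ran from -0.17 to 0.27 with a median of 0.05. With an unadjusted p under 0.05 there were 1 of 18 without and 6 of 18 with the block, against 3.09% and 18.3% of all genes. The groups did not overlap in 2 of the 18 above the controls (SLBP and NCBP2) and 1 below (NELFE). Of all tested genes, 4.08% lay above and 5.11% below in this way. SLBP measured 224, 223 and 226 CPM with shNC and 236, 242 and 239 CPM with PLEK2 shRNA. Its log2 fold change was 0.09 ± 0.07 (SE, edgeR adjusted p = 0.968). SRRT, a cap-complex partner in 3′ end processing and the most abundant of them by counts, had -0.15 ± 0.10 (SE), and UPF1, a helicase that takes part in decay of histone mRNA, -0.04 ± 0.14.

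Of 16 histone chaperones, 0 were called in either fit, with a range from -0.24 to 0.26, and 0 and 4 had an unadjusted p under 0.05 without and with the block, against the same shares of all genes. NAP1L1, an H2A and H2B chaperone, measured 571, 469 and 466 CPM in shNC replicates 1 to 3 and 589, 471 and 496 CPM after knockdown (log2 fold change 0.05 ± 0.11). SUPT16H, a subunit of the FACT complex, had 0.01 ± 0.08. Of 12 genes of S phase, 0 were called in either fit, 2 had an unadjusted p under 0.05 in each, against the shares given above, and the range was -0.22 to 0.30. RRM2, a subunit of ribonucleotide reductase, had 664, 485 and 427 CPM against 590, 494 and 506, and MCM5, of the replicative helicase, 280, 273 and 288 against 217, 242 and 262. The RRM2 groups overlapped, and all 3 MCM5 values with PLEK2 shRNA lay below those with shNC (log2 fold change -0.22 ± 0.09, edgeR adjusted p = 0.968). CCNE2, the gene of cyclin E2, separated the other way, with 32.3, 32.8 and 30.9 CPM against 44.7, 35.4 and 38 (log2 fold change 0.30 ± 0.11, edgeR adjusted p = 0.968). The groups thus did not overlap in 1 S phase gene above and 1 below the controls, while 4.08% of all tested genes lay above them in all 3 libraries and 5.11% below. None of the 10 histone genes separated in this way.

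Among the 12 variants, 0 were called without the block and 1 fell with it, against 0.849% of all genes: H1FX, the gene of a linker histone variant. It measured 80.5, 113 and 129 CPM in shNC replicates 1 to 3 and 66.1, 100 and 94.4 CPM after knockdown, lower in each pair, by log2 ratios of -0.28, -0.18 and -0.45. The groups overlapped, and replicate 1 was the lowest library in both. Its log2 fold change was -0.30 ± 0.06 (SE) with the block (edgeR adjusted p = 0.0481) and -0.31 ± 0.20 without it (edgeR adjusted p = 0.968). The call was lost with DESeq2's size factors in the same fit (adjusted p = 0.0571), without pair 2 (0.232) and without pair 3 (0.14). An unadjusted p under 0.05 was reached by 0 of the 12 without and 3 with the block (3.09% and 18.3% of all genes). In all 3 pairs 2 variants were higher and 5 lower, where the shares over all genes were 19.9% and 21.1%. H3F3B, the most abundant variant by counts, which encodes H3.3, had 0.01 ± 0.07, and H1F0, the gene of H1.0, 0.14 ± 0.09.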

How the data were processed

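Oligo(dT)-selected RNA of 6 HCT116 libraries was analysed, grouped by the treatment in the labels. The authors deposited estimated counts per gene, without normalization, and a second set of columns whose header names no unit. These deposited values were read as FPKM, since count over value gave a length per gene. The submitters' processing notes name HISAT2 2.0.4, Bowtie2 2.2.5, RSEM 1.2.12, DESeq2 1.4.5 and the mouse build GRCm38.p6, although organism, gene IDs and symbols are human. RSEM divides a read among the genes that it fits. Deposited group means were not used.

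Counts were rounded, filtered with filterByExpr (12959 of 17047 genes kept), scaled by TMM (factors 0.984 to 1.021) and tested with edgeR 4.0.16 (quasi-likelihood, Benjamini-Hochberg over all genes tested). Alternatives used DESeq2 1.42.0 and limma 3.58.1 on log2(FPKM + 1), under R 4.3.3 and Python 3.11.15. Detection meant at least 1 count, and genes were split at a mean of 10 counts. Counting errors and Poisson limits do not cover variation between cultures. Scripts were tested on simulated counts. Counts of any 2 libraries of a group differed beyond sampling noise (chi-square from 2.97 to 19.34 per gene).

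Same-numbered libraries were taken as pairs: over 10161 genes, deviations from group means correlated at 0.736, 0.558 and 0.554 for equal numbers and between -0.629 and 0.358 for unequal ones. Of the unequal ones, shNC replicate 2 with PLEK2 shRNA replicate 3 gave 0.358, and shNC replicate 3 with PLEK2 shRNA replicate 2 gave 0.355. The correlations thus told pairs 2 and 3 apart less clearly than pair 1. No label states a shared day, so the pairing rests on these correlations and on the numbers.

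The 50 genes and all lists were chosen with earlier results of these data known. Named were the 3 most abundant genes of each histone class, any that passed the test, the known polyadenylated genes, and in other lists those called and the 2 most abundant. HIST2H2AC, HIST1H2AD, HIST1H3D, H2AFX, H2AFY2, H2AFZ, H2AFJ, CCNE2, SLBP, NCBP2, NELFE, LSM11, ATRX, TONSL, the partners in shared reads, the genes listed by detection and cell type markers were named beyond this rule, some after their values were seen. All 50 genes matched RefSeq and GENCODE 44 on hg38 through their gene IDs. ZCCHC6 was matched as TUT7. Of 14 RNAs without a poly(A) tail that were listed as a check of the selection, 0 matched a row, so they were not analysed here.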

Additional observations from a re-analysis of the deposited data

How the results depend on the processing

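No histone gene was called under any of the 19 settings of the test, which included DESeq2's size factors and Wald test, library totals, 2 other filters, limma-trend, the replicate block and each library left out. The counts of genes higher or lower in all 3 pairs, 0 and 0, were also 0 with other scalings and with the split at a mean of 5 or 20 counts. Detection in all libraries was 14 at 1 count, 15 at any count above 0 and 10 at 5 counts. The summed level (-0.14) lay between -0.26 and 0.00 with a library left out, at -0.04 without HIST1H2BK and between -0.13 and -0.11 with other scalings or FPKM. With the replicate block, 1 variant was called in place of 0, as with library totals added; the fits with a pair left out, chosen after seeing the data, called 2 without pair 1 (H1FX and H1F0), 0 without pair 2 and 1 without pair 3 (H2AFX). Beside PLEK2, the block changed no other call in the processing, chaperone and S phase lists. With a pair left out as well, 1 processing gene (LSM11) and 2 chaperones (ATRX and TONSL) were called without pair 1 and 1 S phase gene (MCM5) without pair 3. The whole table had 0 genes called without the block, 110 with it and 192 with the block and library totals. With the block and a pair left out, calls in the whole table were 528 of 13014 genes without pair 1. They were 18 of 13003 without pair 2 and 297 of 12988 without pair 3.

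Directions turned in genes whose log2 fold change lay between -0.14 and 0.06. With 1 library left out, the ranges were -0.26 to 0.06 for HIST1H1C, -0.12 to 0.06 for HIST3H2A, -0.20 to 0.29 for HIST2H2AA3 and HIST2H2AA4 each, -0.13 to 0.28 for HIST1H2AC, -0.23 to 0.34 for HIST2H2AC, -0.13 to 0.10 for UPF1, -0.05 to 0.16 for NAP1L1, -0.03 to 0.10 for SUPT16H and -0.11 to 0.23 for RRM2. In the replicate block with a pair left out, HIST1H1C reached 0.05 (pair 3), HIST3H2A 0.07 (pair 2), HIST2H2AA3 and HIST2H2AA4 -0.01 (pair 1) and -0.15 (pair 2), HIST1H2AC -0.11 (pair 3), HIST2H2AC 0.05 (pair 1), H3F3B 0.00 (pair 1, below 0), UPF1 0.02 (pair 1), SUPT16H -0.01 (pair 3) and RRM2 -0.06 (pair 3). HIST3H2A was 0.01 and HIST2H2AC 0.04 with limma-trend, and HIST2H2AC 0.01 with library totals, with or without the block. The cause of these shifts was not tested. Under a mean of 10 counts, where depth limits the precision, lay 40 of the 50 histone genes.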
